A study of Capra hircus with 12 samples.

Results

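Transcripts of 5 mitochondrially encoded respiratory chain genes, COX1, COX3, CYTB, ATP6 and ND4, were followed in mammary gland biopsies of dairy goats. The genes were taken by symbol from the deposited tables of expected counts. They are 5 of the 4974 genes with counts in at least 1 of these tables and 5 of the 1408 with counts in all 12 libraries. Their gene identifiers, 1485858 (COX1), 1485862 (COX3), 1485868 (CYTB), 1485861 (ATP6) and 1485865 (ND4), matched protein genes of the mitochondrial genome in the RefSeq annotation of goat assembly ARS1.2. The authors aligned reads to the build CHIR_1.0, so coordinates from ARS1.2 are not given here. Each deposited table is limited to genes that differed between a pair of groups in the authors' own comparison, at p-values below 0.05 before adjustment. A gene present in a table therefore had to differ between its groups, and the counts of members given here describe the set and are no independent evidence of its direction. All 5 members were in the tables of ME and MC, of PE and MC and of ME and PC, and COX1, COX3 and ATP6 were also in the table of PE and PC. Of the genes the authors tested, these tables held 1779 of 15102, 1869 of 14760, 2282 of 15099 and 2262 of 14753, in that order. No member was in the table of the control groups or in that of the restricted groups, which held 755 of 14469 and 920 of 15221 genes.

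The biopsies came from 4 groups of 3 lactating goats, each library from a separate animal: Majorera Restricted (ME), Majorera Control (MC), Palmera Restricted (PE) and Palmera Control (PC). Restricted goats of either breed received wheat straw with a vitamin-mineral supplement, and control goats received a diet that met the needs of lactation. The study set Majorera, a breed described as tolerant to seasonal weight loss, against Palmera, described as susceptible. Restricted and control goats were kept in different pens, so diet and pen cannot be told apart, and p-values measure the spread between the goats sampled.

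Oxidative phosphorylation passes electrons from nutrients along protein complexes of the inner mitochondrial membrane and uses the resulting proton gradient to make ATP. Most subunits of the complexes are encoded in the nucleus, and a small core set is encoded in mitochondrial DNA, which is present in many copies per cell and is transcribed as long precursors that are cut into separate RNAs. ND4 is a proton-pumping membrane subunit of complex I (NADH dehydrogenase), CYTB is the cytochrome b of complex III, COX1 and COX3 are core subunits of complex IV (cytochrome c oxidase), COX1 being the one that holds the oxygen-reducing site, and ATP6 forms part of the proton channel of ATP synthase. Milk secretion is an energy-demanding process, and the epithelium of the lactating mammary gland is known to be rich in mitochondria. Most mammalian mitochondrial messengers carry poly(A) tails, so libraries made from poly(A) RNA, as here, contain them.

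The libraries held 14700960 to 27303378 mapped read pairs. Ratios of count to FPKM, the value scaled by depth and gene length, in 79 genes gave the relative size of each library. These sizes matched the study's list of mapped reads within 0.739% only when the control and restricted labels of equally numbered goats of a breed were exchanged in that list, and were 4.27% to 85.1% off otherwise. The exchanged totals were the best match for 12 of 12 libraries. The ratios do not tell whether the list or the count columns carry the exchanged label. Groups were taken from the sample labels, under which the 5 milk protein genes CSN1S1, CSN1S2, CSN2, CSN3 and LALBA took 34.3% to 60.3% of read pairs in ME and 64.5% to 70.9% in MC goats, and 36.8% to 65.3% in PE and 66.2% to 73.1% in PC goats. If the labels of the count columns were the exchanged ones, every diet difference given here would change sign. The PE 2 library, at 65.3%, lay close to the PC goats, and ME 2, at 34.3%, and PE 3, at 36.8%, were the lowest.

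Because milk protein messengers filled at least 34.3% of every library, the members were measured on 2 scales. On the first, counts in CPM, the usual unit of counts relative to library size, were scaled by the trimmed mean of M-values (TMM), which sets the middle of the measured genes equal across libraries. On the second, a count was divided by all mapped read pairs of its library and is given as CPM of mapped pairs, so that a fall of the milk protein messengers raises the share of every other gene. On that share scale the median log2 change of 913 genes not chosen by any comparison was 1.06 for ME over MC, and that of 906 such genes was 1.00 for PE over PC, against 0.00 in either breed after TMM scaling. The 5 members together took 3.24%, 5.15% and 3.69% of the read pairs of ME goats 1 to 3, against 3.69%, 3.89% and 3.55% in MC goats. They took 3.47%, 3.32% and 5.51% in PE goats, against 2.69%, 3.18% and 3.95% in PC goats.

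On the TMM scale, all 5 members had lower levels in every restricted goat than in any control goat of the same breed. So did 11% of 913 unselected genes in Majorera and 11.3% of 906 in Palmera. In Majorera, the members were at 0.491 to 0.611 times their control level, and in Palmera at 0.645 to 0.703 times. The differences did not pass an adjusted p of 0.05 in edgeR's quasi-likelihood test with Benjamini-Hochberg adjustment over all genes the authors had tested. As a share of all mapped pairs, 0 of 5 members separated the diets in either breed, where 64.3% of the unselected genes had ME above MC without overlap and 37.1% PE above PC. The members, already listed by the authors' comparisons, thus had lower values relative to the bulk of other genes. Relative to the whole library, their log2 changes were -0.02 to 0.33 for ME over MC and 0.28 to 0.42 for PE over PC, and none had an unadjusted p under 0.05 in edgeR's test.

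ND4, the complex I member, stood at 4071, 3534 and 3838 CPM in ME goats, against 5964, 7632 and 7013 CPM in MC goats. In Palmera it stood at 2815, 5170 and 4511 CPM in PE goats, against 5729, 6085 and 6132 CPM in PC goats. The ME goats were close together and well under the MC goats, whereas PE 2 came near the lowest PC goat. The group means were 3814 ± 269 CPM (ME), 6870 ± 843 CPM (MC), 4165 ± 1215 CPM (PE) and 5982 ± 220 CPM (PC; SD, n = 3 each).

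CYTB, the complex III member, had 4661, 3676 and 4154 CPM in ME goats, against 5804, 7760 and 6990 CPM in MC goats. It had 3051, 5901 and 4784 CPM in PE goats, against 6189, 7084 and 6610 CPM in PC goats. PE 2 was again the closest to the control goats, under the lowest PC goat but above the lowest MC goat.

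COX1, the catalytic subunit of complex IV, had 13021, 9156 and 12768 CPM in ME goats, against 20757, 27039 and 23720 CPM in MC goats. In Palmera the values were 8887, 18623 and 13511 CPM in PE goats, against 22085, 20006 and 21133 CPM in PC goats. All ME goats were below the MC goats, ME 2 being the lowest of them, and PE 2 had more than double the level of PE 1. COX3, the other complex IV member, had 4381, 3514 and 3756 CPM in ME goats, against 5654, 6473 and 7019 CPM in MC goats. Its values were 2892, 5324 and 4215 CPM in PE goats, against 6545, 5804 and 7107 CPM in PC goats.

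ATP6, the ATP synthase member, had 4340, 2875 and 3904 CPM in ME goats, against 6160, 8376 and 7560 CPM in MC goats. It had 2673, 5320 and 4404 CPM in PE goats, against 5685, 6656 and 6541 CPM in PC goats. PE 1 held the lowest value of each of the 5 members among all 12 libraries. In MC and PC, goat 1 had the lowest ATP6 value, and in ME it had the highest.

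**Figure D1:**
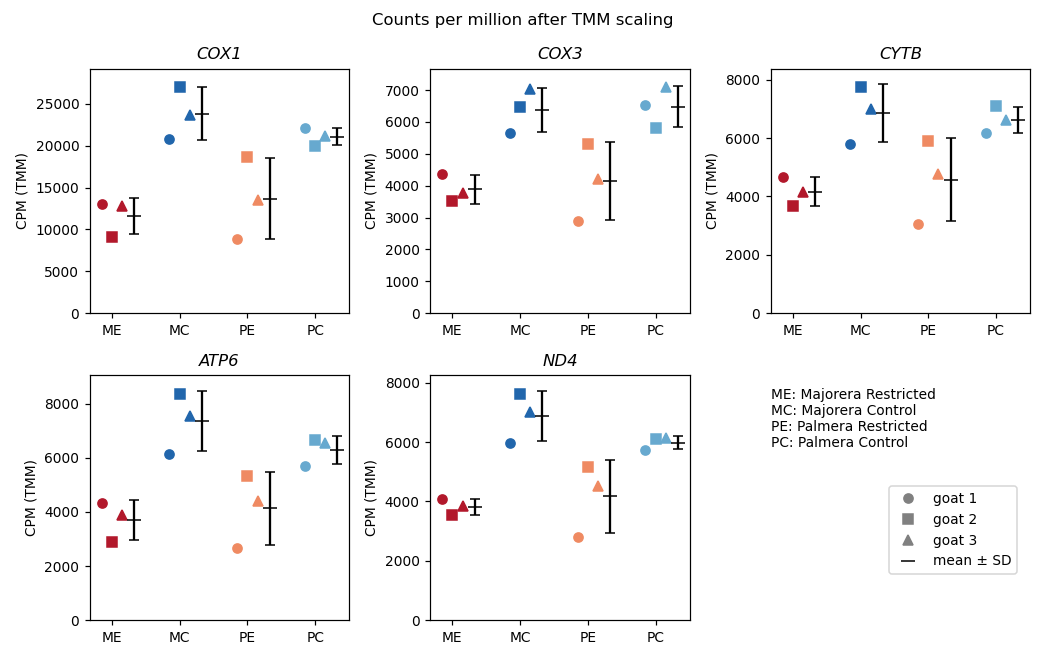
CPM after TMM scaling (vertical axis) of COX1, COX3, CYTB, ATP6 and ND4 in each goat of the ME, MC, PE and PC groups. Circles, squares and triangles are goats 1, 2 and 3, and the bars are the mean ± SD of 3 goats. COX1 lay between 9156 and 13021 CPM in ME goats and between 20757 and 27039 CPM in MC goats, and PE 2, at 18623 CPM, came closest to the control goats.

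The share scale gave another order. COX1 made up 13852, 20713 and 16591 CPM of mapped pairs in ME goats, against 17289, 18382 and 16119 in MC goats. It made up 15185, 15329 and 23696 in PE goats, against 12837, 13947 and 17570 in PC goats. The highest shares of COX1 were in PE 3 and ME 2, the libraries with little milk protein messenger. COX3 made up 4661, 7948 and 4882 CPM of mapped pairs in ME goats, against 4710, 4400 and 4770 in MC goats, and 4941, 4382 and 7392 in PE goats, against 3804, 4046 and 5908 in PC goats. CYTB averaged 6225 ± 1825 CPM of mapped pairs in ME goats, against 4954 ± 282 in MC goats, and 6154 ± 1945 in PE goats, against 4677 ± 976 in PC goats (SD, n = 3 each). ME 2 and PE 3 were again the highest, as they were for each member. ATP6 made up 4617, 6503 and 5073 CPM of mapped pairs in ME goats, against 5131, 5695 and 5138 in MC goats, and 4567, 4379 and 7723 in PE goats, against 3304, 4640 and 5438 in PC goats. ND4 made up 4330, 7995 and 4988 CPM of mapped pairs in ME goats, against 4968, 5188 and 4766 in MC goats, and 4809, 4255 and 7912 in PE goats, against 3330, 4242 and 5098 in PC goats. On this scale each member had a larger SD in ME than in MC goats and in PE than in PC goats.

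**Figure D2:**
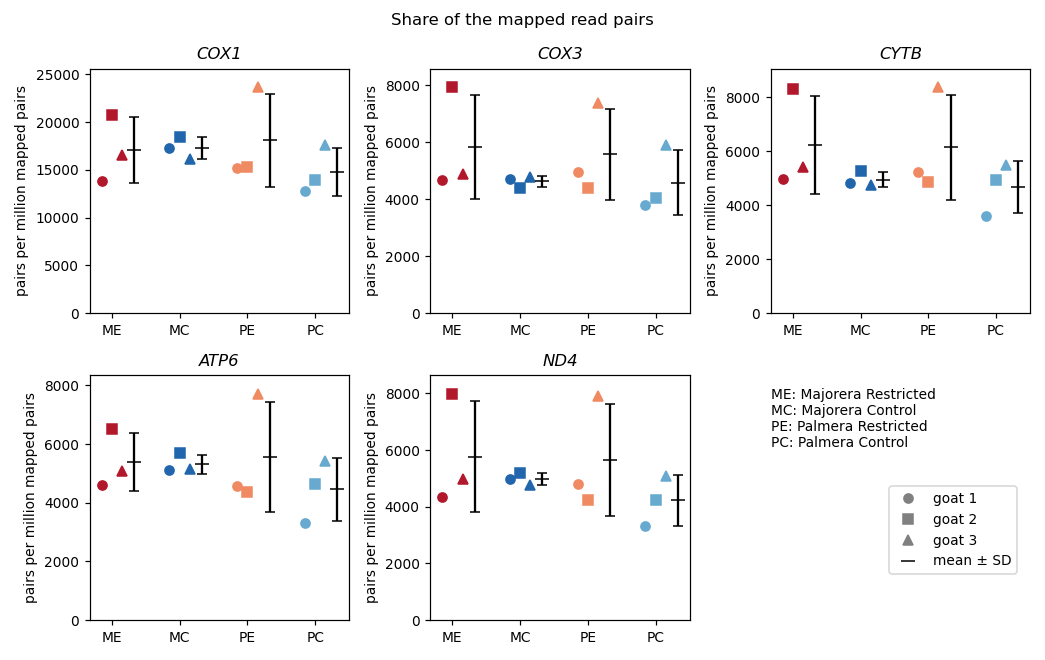
Members as CPM of mapped pairs (vertical axis) in each goat of the ME, MC, PE and PC groups, with symbols as goats 1, 2 and 3 and bars as mean ± SD of 3 goats. ME 2 and PE 3 had the highest shares of their groups, for COX1 20713 and 23696 CPM of mapped pairs, and the diets overlapped for every member.

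For ME over MC, the log2 fold changes on the TMM scale were -1.03 for COX1 (SE 0.36, 95% interval -1.86 to -0.19), -0.98 for ATP6 (SE 0.35), -0.84 for ND4 (SE 0.32), -0.71 for CYTB (SE 0.33) and -0.71 for COX3 (SE 0.32). Adjusted p-values from edgeR's quasi-likelihood test with Benjamini-Hochberg adjustment ran from 0.317 for COX1 to 0.562 for CYTB. None of the 5 members passed, where 0.0397% of the 15102 genes the authors had tested passed. At an unadjusted p under 0.05, 3 of 5 members (COX1, ATP6 and ND4) were lower by edgeR, where 8.11% of 913 unselected genes were. DESeq2's Wald test on the same scaling called all 5, with adjusted p-values of 0.00126 to 0.0473. The share of all genes that DESeq2 called was not counted, so its calls have no background to be read against. All 5 members had ME and MC goats that did not overlap, with ME lower, as 11% of the unselected genes did. The median of the members was -0.84, and 4.27% of the unselected genes had a lower change. With mapped pairs alone, the members ran from -0.02 (COX1) to 0.33 (COX3), under the median of 1.06 of the unselected genes on that scale.

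For PE over PC, the TMM log2 fold changes were -0.63 for COX3 (SE 0.36), -0.61 for COX1 (SE 0.39, 95% interval -1.48 to 0.25), -0.59 for ATP6 (SE 0.36), -0.52 for CYTB (SE 0.36) and -0.51 for ND4 (SE 0.35). In edgeR's quasi-likelihood test with Benjamini-Hochberg adjustment, none of the 5 passed, with adjusted p-values of 0.639 to 1, where 0.00678% of 14753 genes passed. None had an unadjusted p under 0.05, against 9.27% of 906 unselected genes that were lower, and DESeq2's Wald test called none. PE goats lay below PC goats without overlap in 5 of 5 members, as in 11.3% of the unselected genes. Their median of -0.59 had 10.04% of the unselected genes below it. Without PE 1 the members' values were -0.40 to -0.26, and without PE 2 they were -0.87 to -0.66. With mapped pairs alone, the members ran from 0.28 (COX3) to 0.42 (ND4), under the unselected median of 1.00.

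With both breeds in 1 model, restricted over control log2 fold changes on the TMM scale were -0.83 for COX1 (SE 0.23, 95% interval -1.33 to -0.33), -0.80 for ATP6 (SE 0.23), -0.69 for ND4 (SE 0.21), -0.68 for COX3 (SE 0.20) and -0.63 for CYTB (SE 0.21). None passed in edgeR's quasi-likelihood test with Benjamini-Hochberg adjustment (adjusted p of 0.0820 for COX1, 0.0823 for ATP6 and 0.179 for CYTB). In that test 432 genes passed, 2.84% of the 15221 used for the adjustment. Only genes with counts in all 12 libraries could be fitted, so the share of the fitted genes was larger. All 5 had an unadjusted p under 0.05, where 12.8% of 981 unselected genes were lower at that level. DESeq2's Wald test called all 5, with adjusted p-values of 0.00116 to 0.00866, and its share of calls over all genes was not counted. Without the PE 2 library, edgeR called 2 of the members, COX1 and ATP6. With mapped pairs alone, the members' values were 0.14 (COX1) to 0.36 (CYTB), and the unselected median was 1.05.

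**Figure D3:**
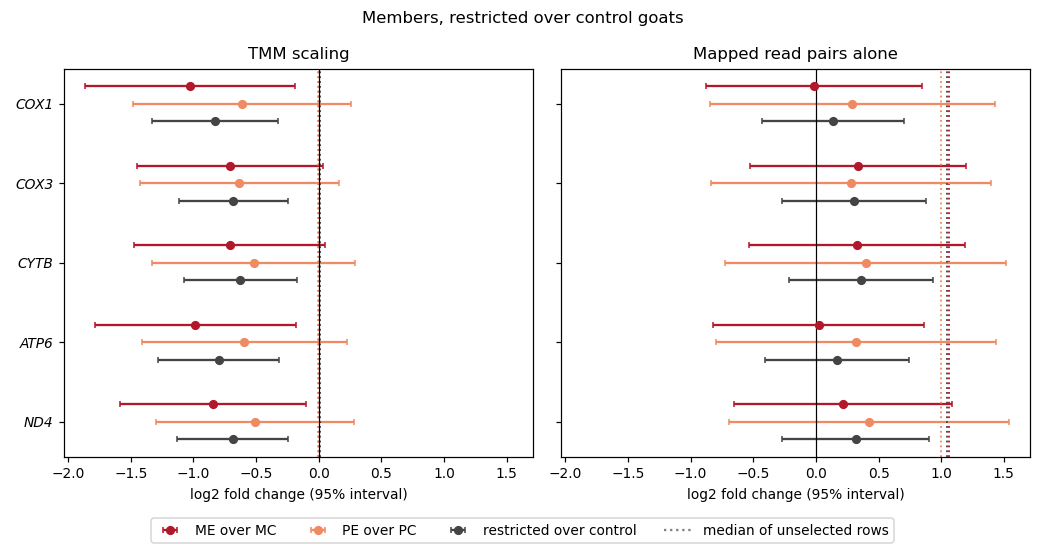
Log2 fold change (horizontal axis) of each member for ME over MC, PE over PC and restricted over control in both breeds, with 95% intervals, after TMM scaling (left) and with mapped read pairs alone (right). Dotted lines are the medians of genes not chosen by any comparison. After TMM scaling COX1 was at -1.03, -0.61 and -0.83, and with mapped pairs alone at -0.02, 0.29 and 0.14, left of the medians of 1.06, 1.00 and 1.05.

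The 2 comparisons across breed and diet share their libraries with those above. For PE over MC, the members' TMM log2 fold changes ran from -0.80 (ATP6) to -0.55 (CYTB). None passed in edgeR's quasi-likelihood test with Benjamini-Hochberg adjustment, where 0.0949% of 14760 genes passed, and DESeq2 called none. At an unadjusted p under 0.05, 1 member (ATP6) was lower, where 8.75% of 914 unselected genes were. In 4 of 5 members, all but CYTB, PE goats lay below MC goats without overlap, as in 10.1% of 914 unselected genes. For ME over PC, they ran from -0.84 (COX1) to -0.64 (ND4), and none passed in edgeR, where 0% of 15099 genes did. DESeq2 called COX1 with an adjusted p of 0.0457, and the share of all genes that DESeq2 called was not counted. At an unadjusted p under 0.05, 3 members (COX1, COX3 and ATP6) were lower, where 7.61% of 907 unselected genes were. In 5 of 5 members ME goats lay below PC goats without overlap, as in 11.1% of 907 unselected genes.

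Between breeds the members had changes near 0, with wide intervals. For PC over MC the median log2 change of the members was -0.18 on the TMM scale (-0.087 without MC 2), and for COX1 it was -0.18 (95% interval -1.12 to 0.75). For PE over ME the median was 0.14, and COX1 had 0.23 (95% interval -0.73 to 1.19). Over both diets, Palmera over Majorera had a median of 0.03 and a COX1 value of 0.03 (95% interval -0.47 to 0.53). No member passed in edgeR's quasi-likelihood test with Benjamini-Hochberg adjustment in these 3 comparisons (adjusted p of 1 for each), none had an unadjusted p under 0.05 and DESeq2 called none. By edgeR the genes that passed were 0.00691%, 0% and 0.0131% of those used for the adjustment. In the last comparison only genes with counts in all 12 libraries could be fitted. Of the unselected genes, 3.19% were lower and 2.24% higher at that unadjusted level for PC over MC, 3.1% and 3% for PE over ME, and 3.87% and 2.24% for Palmera over Majorera. The COX1 intervals within a diet include changes of the size seen between diets, so the breeds are not shown to be alike.

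The order of the groups by mean TMM level was ME, PE, PC and MC from low to high for COX1, CYTB, ATP6 and ND4, and ME, PE, MC and PC for COX3. In each member PE and ME overlapped, as did PC and MC. Among the unselected genes, 5.48% had PE below ME without overlap and 5.99% PE above ME, and 5.79% had PC below MC and 5.67% PC above MC. The interaction, which is the diet change in Palmera minus that in Majorera, had a median of 0.33 over the members, and of 0.12 without PE 2 and 0.54 without PE 1. For COX1 it was 0.41 (95% interval -0.61 to 1.43), with a Palmera change of -0.61 and a Majorera change of -1.03. None of the 5 passed in edgeR's quasi-likelihood test with Benjamini-Hochberg adjustment (adjusted p of 1 for each), none had an unadjusted p under 0.05 and DESeq2 called none. By edgeR 1 gene passed, 0.00657% of the 15221 used for the adjustment, and only genes with counts in all 12 libraries could be fitted. At an unadjusted p under 0.05, 2.55% and 1.83% of the unselected genes were lower and higher. A difference between the breeds in the diet change of these genes was not detectable with 3 goats per group.

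Ratios of members within a library do not depend on how the libraries are scaled. The ratio of CYTB to ATP6 counts was 1.07, 1.28 and 1.06 in ME goats, against 0.942, 0.926 and 0.925 in MC goats. It was 1.14, 1.11 and 1.09 in PE goats, against 1.09, 1.06 and 1.01 in PC goats. All ME goats were above all MC goats, and the Palmera diets touched, PE 3 lying just under PC 1. The mean log2 difference over both breeds was 0.18 (SE 0.05), 0.29 in Majorera and 0.08 in Palmera, with an exact two-sided permutation p of 0.01 over 400 assignments of diet within breed. The smallest p this test can give is 0.005. After Benjamini-Hochberg adjustment over the 10 pairs of members the p was 0.1, so it did not pass.

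The ratio of COX1 to CYTB was 2.79, 2.49 and 3.07 in ME goats, against 3.58, 3.48 and 3.39 in MC goats. It was 2.91, 3.16 and 2.82 in PE goats, against 3.57, 2.82 and 3.197 in PC goats. The Majorera diets did not overlap and the Palmera diets did, and the mean log2 difference over both breeds was -0.22 (SE 0.07, exact permutation p = 0.025, adjusted p = 0.125). The ratios of ATP6 to ND4 and of COX1 to ND4 had mean log2 differences of -0.12 and -0.16, with exact permutation p-values of 0.045 and 0.05 and an adjusted p of 0.125 each. The other 6 pairs had exact permutation p-values of 0.125 to 0.935, and 0 of 10 pairs passed after adjustment. COX1 formed 42.7%, 40.2% and 44.9% of the summed counts of the 5 members in ME goats, against 46.8%, 47.2% and 45.4% in MC goats. In Palmera it formed 43.7%, 46.2% and 43.0% in PE goats, against 47.8%, 43.8% and 44.5% in PC goats.

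**Figure D4:**
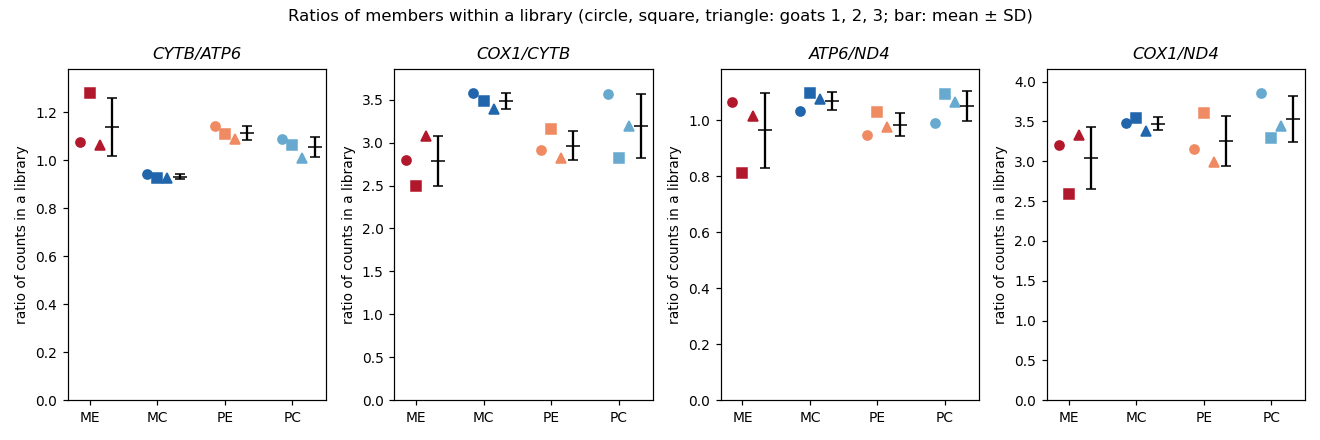
Ratio of the counts of 2 members within each library (vertical axis) for CYTB to ATP6, COX1 to CYTB, ATP6 to ND4 and COX1 to ND4, in ME, MC, PE and PC goats, with mean ± SD of 3 goats. The CYTB to ATP6 ratio was 1.06 to 1.28 in ME goats and 0.925 to 0.942 in MC goats, and the COX1 to CYTB ratio was 2.49 to 3.07 in ME goats and 3.39 to 3.58 in MC goats.

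The members varied together across the libraries. Over the 12 libraries, Pearson's r between the log2 levels of 2 members was 0.95 to 0.99 on the TMM scale and 0.84 to 0.98 on the share scale. The points share their library and its scaling factor, so these values are descriptions. In the RefSeq order of the goat mitochondrial genome, ATP6 lies between ATP8 and COX3 and overlaps both neighbours, ND4 overlaps ND4L ahead of it, COX1 lies between ND2 and COX2, and CYTB comes last, after ND6. Reads from the overlapping stretches cannot be told apart between neighbours, but the members' counts were whole numbers, within 0.005, in every library. Counts of ND1, ND2, ND5 and ND6 were further than that from a whole number in every library listed, which marks reads that the authors' counting divided among genes, and their values are uncertain to that extent.

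The other 8 protein genes of the mitochondrial genome were each present in at least 1 table, ATP8 and ND4L with counts in all 12 libraries. For ME over MC, the 7 with counts (COX2 and ATP8 of complex IV and ATP synthase, and ND1, ND2, ND3, ND4L and ND6 of complex I) had TMM log2 fold changes of -0.89 (COX2) to -0.67 (ND2), with a median of -0.77, and values of 0.22 to 0.41 with mapped pairs alone. All 7 were listed because they differed between ME and MC in the authors' comparison, so their count and direction are no independent evidence. On the TMM scale all 7 had an unadjusted p under 0.05 by edgeR, where 8.11% of 913 unselected genes were lower at that level. None passed in edgeR's quasi-likelihood test with Benjamini-Hochberg adjustment (adjusted p of 0.215 to 0.344). ND3, a complex I subunit, had 562, 532 and 550 CPM in ME goats, against 869, 1016 and 1019 CPM in MC goats, with no overlap. ND6, the gene read from the opposite strand to the members, had 958, 694 and 793 CPM in ME goats, against 1247, 1533 and 1366 CPM in MC goats, without overlap either. Of the unselected genes, 11% had ME below MC without overlap.

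ND4L, the complex I subunit whose gene overlaps ND4, had 260, 210 and 245 CPM in ME goats, against 408, 517 and 337 CPM in MC goats. It had 192, 320 and 319 CPM in PE goats, against 421, 383 and 511 CPM in PC goats. It fell over both breeds, with a log2 fold change of -0.74 (SE 0.17) and an adjusted p of 0.0349 in edgeR's quasi-likelihood test with Benjamini-Hochberg adjustment, on the TMM scale. With mapped pairs alone its change was 0.26 with an adjusted p of 1. ATP8 had a log2 fold change of -0.62 (SE 0.18) over both breeds and an adjusted p of 0.0818 in the same edgeR test. ND5 had counts only in the table of ME and PC, with a log2 change of -0.63 for ME over PC (SE 0.31, adjusted p of 0.468 by edgeR).

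Subunits encoded in the nucleus were measured where a table listed them. For complex I, the entry point of electrons from NADH, 14 of 38 listed genes had counts for ME and MC, 11 of them from tables limited to genes that differed. All 14 had lower TMM values in ME, with a median log2 change of -0.64, against 0.00 over the unselected genes, and all 14 had higher values with mapped pairs alone, with a median of 0.41, against 1.06. On the TMM scale 12 had an unadjusted p under 0.05, where 8.11% of 913 unselected genes were lower at that level. Of these 12 only NDUFA12 was read without that limit. After adjustment 0 passed in edgeR's quasi-likelihood test. NDUFS8, an iron-sulphur subunit, had the smallest p, with -0.77 (SE 0.16, adjusted p of 0.158 by edgeR), and NDUFA1, NDUFS7 and NDUFA3 had -0.66, -0.73 and -0.72. The 3 genes read without that limit, NDUFA12, NDUFB3 and NDUFS4, had -0.54, -0.19 and -0.15 for ME over MC, and 0.24, 0.20 and 0.27 for PE over PC. No other nuclear complex I gene had counts for both PE and PC. In complex II, which is encoded wholly in the nucleus, SDHA, the flavoprotein subunit of succinate dehydrogenase, had -0.83 for ME over MC and -0.76 for PE over PC, and it fell over both breeds with -0.80 (SE 0.18, adjusted p of 0.0295 in edgeR's quasi-likelihood test). With mapped pairs alone SDHA had 0.21 over both breeds, with an adjusted p of 1. SDHD, a membrane anchor of the same complex, had -0.68 for ME over MC.

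Among ATP synthase genes, 3 of 17 had counts for ME and MC. ATP5B, the catalytic beta subunit, and ATP5G1, of the c ring, had -0.64 and -0.63, and ATP5I had 0.01 for ME over MC and 0.95 for PE over PC (adjusted p of 0.278 by edgeR, and 1.92 with an adjusted p of 0.0188 with mapped pairs alone). With mapped pairs alone the median of the unselected genes for PE over PC was 1.00. No listed nuclear gene of complex III or IV had counts for ME and MC or for PE and PC. Of the 15 genes listed for complex IV, NDUFA4L2, related to a subunit of that complex, had counts for PE and MC alone, with 8, 25 and 42 reads in PE goats, against 49, 31 and 31 reads in MC goats. Its log2 change for PE over MC was -1.09 on the TMM scale (SE 0.53, adjusted p of 0.551 by edgeR) and -0.27 with mapped pairs alone.

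**Figure D5:**
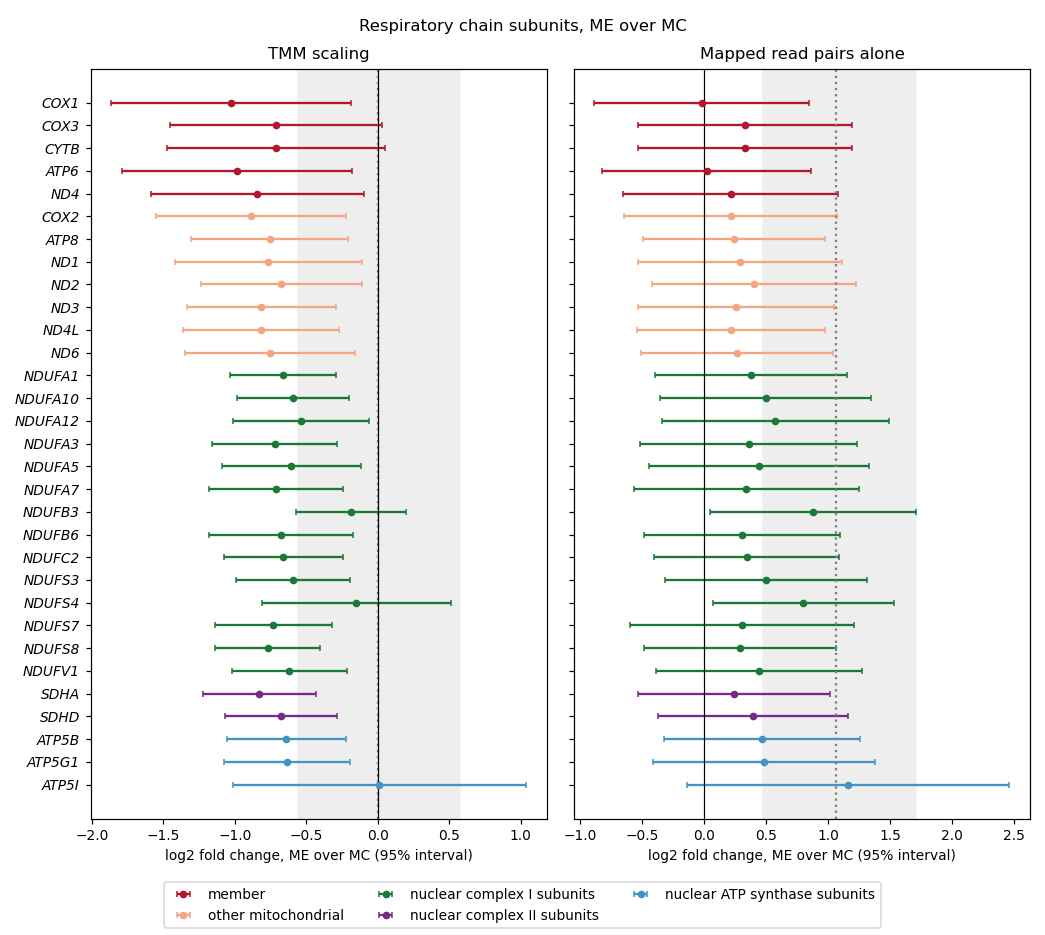
Log2 fold change for ME over MC (horizontal axis, 95% intervals) of the 5 members, 7 other mitochondrially encoded genes and the nuclear subunits with counts, after TMM scaling (left) and with mapped read pairs alone (right). The dotted line is the median of 913 unselected genes and the grey band holds their 10th to 90th percentile. After TMM scaling the mitochondrially encoded genes lay between -1.03 and -0.67, and with mapped pairs alone between -0.02 and 0.41.

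Of 37 listed genes for the copying, transcription and processing of mitochondrial DNA and RNA, 6 had counts for ME and MC and 8 for PE and PC. FASTK, whose product takes part in mitochondrial RNA processing in human cells, had a TMM log2 change of -0.74 for ME over MC and -0.52 for PE over PC. It fell over both breeds with -0.64 (SE 0.13, adjusted p of 0.0186 in edgeR's quasi-likelihood test), and had 0.39 with an adjusted p of 1 with mapped pairs alone. NRF1 and GABPB1, which encode transcription regulators of nuclear respiratory genes, had 0.82 and 0.69 for ME over MC. PPARGC1B, a coactivator linked to mitochondrial biogenesis, had -1.55 for PE over PC (SE 0.45). POLG, the DNA polymerase of mitochondria, had -0.28 for ME over MC and -0.57 for PE over PC, and POLRMT, the mitochondrial RNA polymerase, had -0.10 and 0.16. MTERFD3, of the mitochondrial transcription termination factor family, had 1.26 for PE over PC. None of these single-breed values passed after adjustment in edgeR's test on the TMM scale. With mapped pairs alone, NRF1 and GABPB1 passed in that test for ME over MC, with 1.87 and 1.75. MTERFD3 and FASTKD3 passed for PE over PC, with 2.34 and 2.41. The medians of the unselected genes on that scale were 1.06 and 1.00, and the share of genes passing on it is not given here. The median of the list was -0.19 for ME over MC and -0.36 for PE over PC.

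The members were also set against the milk protein messengers of the same library. For each 100 read pairs of the 5 milk protein genes there were 5.38, 15.01 and 6.95 pairs of the members in ME goats, against 5.73, 5.50 and 5.11 in MC goats. There were 7.67, 5.08 and 14.98 in PE goats, against 3.68, 4.44 and 5.97 in PC goats. ME 2 and PE 3 stood furthest apart, and ME 3 and PE 1 also lay above every control goat. ME 1 and PE 2 lay within the range of the control goats of their breed. Of the read pairs left after taking out the milk protein genes, the members formed 8.16%, 7.83% and 7.88% in ME goats, against 10.4%, 13.4% and 11.7% in MC goats. On that scale, chosen after seeing the data, they formed 6.34%, 9.58% and 8.72% in PE goats, against 9.99%, 11.2% and 11.7% in PC goats. The diets did not overlap in either breed, but the share of other genes without overlap on that scale was not counted. On TMM values LALBA, the regulatory subunit of lactose synthase, had log2 changes of -2.24 for ME over MC and -2.02 for PE over PC, and CSN2 (beta-casein) had -1.25 and -1.31, each of larger size than those of the members. The other listed milk protein genes ran from -1.94 (CSN1S2) to -0.83 (PAEP) for ME over MC, PAEP lying within the members' range. For PE over PC those with counts ran from -1.67 (CSN1S2) to -0.73 (CSN1S1).

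Secretory epithelium and adipocyte marker sums and the skeletal muscle marker MYH2 did not overlap between the diets in either breed. Macrophage, myoepithelial, T and NK cell and neutrophil sums overlapped in Palmera alone, and fibroblast sums in Majorera alone. Apart from the neutrophil gene CXCR2, the summed genes had counts only through tables limited to genes that differed. C1QC, a macrophage marker read without that limit, had TMM log2 changes of 0.36 for ME over MC and 0.48 for PE over PC. Summed over the markers with counts in all libraries, 4 of 10 macrophage genes reached 57.7 to 188 CPM in ME goats, against 21.7 to 28.6 CPM in MC goats, and 25.2 to 48.3 CPM in PE goats, against 14.5 to 27.2 CPM in PC goats. Adipocyte markers, 3 of 5, reached 0.617 to 1.18 CPM in ME goats, against 13.2 to 23.0 CPM in MC goats, and 0.447 to 0.955 CPM in PE goats, against 1.32 to 8.45 CPM in PC goats. Myoepithelial markers, 4 of 8, reached 129 to 189 CPM in ME goats, against 324 to 415 CPM in MC goats, and 87.6 to 229 CPM in PE goats, against 209 to 364 CPM in PC goats. Among them TP63, a transcription factor of basal epithelium, went the other way, with TMM log2 changes of 0.88 for ME over MC, 0.83 for PE over PC and 0.85 for restricted over control (adjusted p of 0.0200 in edgeR's quasi-likelihood test), whereas the contractile genes ACTG2, CNN1 and ACTA2 had -1.92, -1.28 and -0.99 for restricted over control. T and NK cell markers, 2 of 7, reached 20.7 to 37.0 CPM in ME goats, against 7.08 to 19.8 CPM in MC goats, and 11.03 to 24.6 CPM in PE goats, against 8.61 to 12.2 CPM in PC goats. Fibroblast markers, 2 of 6, reached 52.1 to 267 CPM in ME goats, against 86.1 to 715 CPM in MC goats, and 36.0 to 69.6 CPM in PE goats, against 83.7 to 183 CPM in PC goats. These were COL1A1 and LUM, with TMM log2 changes of -1.56 and -0.75 for ME over MC. PDGFRA, a fibroblast marker without counts in all libraries, went the other way, with 0.67 (SE 0.32) for ME over MC. The 4 neutrophil markers reached 6.83 to 14.7 CPM in ME goats, against 2.64 to 5.98 CPM in MC goats, and 2.95 to 42.3 CPM in PE goats, against 1.81 to 6.93 CPM in PC goats. MYH2, the skeletal muscle marker with counts, reached 0.0416 CPM at most in ME and 0.0745 CPM at most in PE goats, against 0.210 to 6.06 CPM in MC and 0.693 to 4.69 CPM in PC goats. LEP, S100A8, S100A9 and MYH2 were at 0 in at least 1 library. The secretory markers CSN2, CSN3, LALBA and KRT18, 4 of 8, had counts in all 12 libraries. On the TMM scale they summed to 140569 to 530739 CPM in ME goats, against 699691 to 933671 CPM in MC goats. The sums were 193051 to 735477 CPM in PE goats, against 737324 to 1151210 CPM in PC goats. KRT18, a keratin of luminal epithelium, had TMM log2 changes of 0.94 for ME over MC, 1.09 for PE over PC and 1.00 for restricted over control (adjusted p of 0.153 by edgeR), opposite in sign to the milk protein genes. The biopsies are bulk tissue, in which fewer cells of a type and less RNA per cell cannot be told apart, and the part of these markers in the members' values was not tested.

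Of 460 nuclear genes with counts in all libraries and a mean of at least 10 CPM, those most like the members over the 12 libraries, by Pearson's r with the mean standardized log2 level of the members, were CSN3 (kappa-casein, r = 0.94), LOC102169480 (0.94), SELENBP1 (0.94), CSN1S2 (alpha-S2-casein, 0.93) and LOC102169098 (0.93). The least like were SH3PXD2B, an adaptor of cell protrusions, and MT1MMP, a membrane-bound matrix protease, with r = -0.95 and -0.94. The median over the nuclear genes was 0.47. On the share scale r was 0.43 for CSN3, 0.66 for LOC102169480 and 0.62 for LOC102169098. It was -0.06 for SELENBP1, -0.56 for CSN1S2, 0.62 for SH3PXD2B and 0.55 for MT1MMP, the reverse of the sign on the TMM scale. These values are descriptions of genes that the deposited tables had already selected.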

How the data were processed

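Poly(A) RNA of 12 mammary biopsies, 3 goats per group, was sequenced by the authors as stranded read pairs. They aligned reads to goat build CHIR_1.0 with Bowtie2 2.2.3, counted genes with RSEM 1.2.17 and compared groups with edgeR 3.2.4. The deposited tables hold expected counts per gene and library, rounded here to whole numbers, for genes with an unadjusted p under 0.05, and also the authors' log2 fold changes, log2 CPM, p-values and FDR, of which only the p-values and FDR were read, to find how many genes the authors tested.

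Library sizes were the study's mapped reads, halved to pairs, assigned by the ratio of count to FPKM and multiplied by TMM factors. The factors came from those of 1998 readable rows of the study's supplementary count table that reached 1 CPM in 3 or more libraries. These rows, not chosen by any comparison, also set the trend of the spread. Genes of the deposited tables were fitted without that filter. Groups were compared with edgeR 4.0.16 (quasi-likelihood test, R 4.3.3) and DESeq2 1.42.0 as an alternative. Benjamini-Hochberg adjustment ran over 14469 to 15221 genes, those the authors tested, and gives an upper bound because genes not listed could only lower it. Shares of genes passing count the fitted genes that passed over that number. Genes without counts could not be fitted, which in the models of all 12 libraries left only genes with counts in every library. The shares are therefore lower bounds. The fits were tested on simulated data. Ratios used exact permutation (Python 3.11.15, scipy 1.17.1). Levels are not compared between genes, since no gene lengths of the authors' build were used.

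The members and the gene lists were chosen with earlier results of these data known. Named genes were the members, the other mitochondrial protein genes, up to 4 genes per list with the smallest p in ME over MC and in PE over PC, and the 5 most and 2 least similar nuclear genes. Milk protein and marker values stand beside the results, and NDUFA12, NDUFB3, POLRMT and FASTKD3 were added after their values were seen. Alternatives covered scaling, test, filter, adjustment, leaving out libraries and a replicate block.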

Additional observations from a re-analysis of the deposited data

How the results depend on the processing

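Under library scaling by mapped pairs alone, the sign of most diet changes turned. With mapped read pairs alone, log2 changes of COX1, COX3, CYTB, ATP6 and ND4 were -0.02, 0.33, 0.33, 0.021 and 0.21 for ME over MC, 0.29, 0.28, 0.40, 0.32 and 0.42 for PE over PC, 0.066, 0.27, 0.31, 0.062 and 0.19 for PE over MC, 0.21, 0.35, 0.41, 0.28 and 0.45 for ME over PC, and 0.14, 0.31, 0.36, 0.17 and 0.32 for restricted over control. The summed members were then higher by 0.314% of pairs in ME than in MC goats and by 0.828% in PE than in PC goats. Breed values near 0 also changed sign: on that scale the PE over ME median was -0.016, and the Palmera over Majorera median and COX1 value were -0.070 each. With totals counted without the milk protein genes, an alternative chosen after seeing the data, the Palmera over Majorera median and COX1 value were -0.020 each, and the members' medians were -0.49 for ME over MC, -0.43 for PE over PC, -0.42 for restricted over control and 0.15 for the interaction. On the share scale the likeness to the members was -0.059 for SELENBP1, -0.557 for CSN1S2, 0.555 for MT1MMP and 0.619 for SH3PXD2B.

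DESeq2 in place of edgeR called 5 members for ME over MC, 1 for ME over PC and 5 for restricted over control, each against 0, and the cause was not tested. The share of all genes that DESeq2 called was not counted, so these counts have no background. Leaving out each library in turn gave 0 to 2 called members for restricted over control (2 without PE 2) and 0 elsewhere. The medians ranged from -0.92 to -0.76 for ME over MC, -0.78 to -0.33 for PE over PC, -0.79 to -0.60 for restricted over control, -0.27 to -0.087 for PC over MC (lowest without MC 1, highest without MC 2), 0.12 to 0.54 for the interaction (lowest without PE 2, highest without PE 1), -0.065 to 0.36 for PE over ME (COX1 -0.055 to 0.46) and -0.12 to 0.11 for Palmera over Majorera (COX1 -0.12 to 0.11). The ratio of COX1 to ATP6 ranged from -0.074 to 0.019 and that of ND4 to COX3 from -0.031 to 0.041 (log2). Equally numbered goats of different groups did not deviate together (correlations of -0.31 to 0.18), so the numbers do not pair the samples, and a replicate block called 0 members in all 9 comparisons, with a median of -0.84 for ME over MC, -0.64 for PE over PC and -0.69 for restricted over control. Under the block 5 members had an unadjusted p under 0.05 for PE over MC, against 1 without it (edgeR). The share of all genes at that level under the block was not counted.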
